A study of Mus musculus with 6 samples.

Results

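The genes described here are 8 neuropeptide precursors of the cerebral cortex: Sst, Npy, Vip, Cck, Cort, Penk, Pdyn and Tac1. They were taken by gene symbol from the annotation of a mouse expression array, and each gene was represented by its brightest probe set, the one with the highest mean signal over all arrays. The 8 genes, of 8251 with an unambiguous symbol on the array, had 11 probe sets among the 12422 of the array that were not controls. Sst, Npy, Vip, Cck, Cort and Tac1 had 1 probe set each, Pdyn had 2 and Penk had 3. The series holds 6 arrays of visual cortex from adult wild-type C57Bl6 mice that lost one eye: 3 from deprived and 3 from non-deprived hemispheres. The deprived hemisphere is contralateral to the removed eye and loses most of its eye input, because most optic nerve fibres cross in the mouse, while the non-deprived hemisphere is ipsilateral to it. Per the labels, 4 mice were operated on at postnatal day 100 and killed 4 days afterwards, and both groups share that surgery. No unoperated mouse is among the samples, so the non-deprived hemisphere is a control within operated animals. The design text speaks of pooled tissue, and nothing says whether each array had a pool of its own, so p-values measure the spread between these arrays, which may be technical.

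Neuropeptides are cut from larger precursor proteins, stored in dense-core granules and released during sustained firing to act on G protein-coupled receptors. In cortex most of these genes are made by GABAergic interneurons: Sst marks cells that inhibit the dendrites of pyramidal neurons, Npy is made by many of the same cells and by neurogliaform cells, and Vip marks cells that mainly inhibit other interneurons. Cck is made by basket cells and also by many pyramidal neurons, Cort encodes cortistatin, a relative of somatostatin that binds the same receptors, Penk and Pdyn encode opioid peptides, and Tac1 encodes substance P and neurokinin A. Transcription of several of them can be driven by neuronal activity through cyclic AMP and the transcription factor CREB, which binds the cyclic AMP response element (CRE).

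The stretch of 100 bases before the transcription start is shown for the genes with a RefSeq promoter entry (build GRCm38.p6), because the CRE of the Sst promoter is a textbook site for activity-driven transcription and the other members can be set beside it. Of the 8 genes, 7 matched, with 8 windows in all, since Pdyn has 2, of which the first is shown. Penk had no entry in the promoter set used, so its promoter was not examined. Capitals mark the CRE half-site TGACG on either strand, which reads CGTCA on the other; where the sites overlap they form the full CRE, TGACGTCA.
Sst (chr16:23890845-23890944, minus strand): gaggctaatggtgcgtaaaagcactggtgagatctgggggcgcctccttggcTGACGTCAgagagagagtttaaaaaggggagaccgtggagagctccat
Npy (chr6:49822610-49822709, plus strand): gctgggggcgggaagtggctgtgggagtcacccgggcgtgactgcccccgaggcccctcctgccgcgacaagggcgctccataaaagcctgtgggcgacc
Vip (chr10:5639118-5639217, plus strand): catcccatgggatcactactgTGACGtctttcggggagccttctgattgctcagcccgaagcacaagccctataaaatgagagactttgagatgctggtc
Cck (chr9:121495695-121495794, minus strand): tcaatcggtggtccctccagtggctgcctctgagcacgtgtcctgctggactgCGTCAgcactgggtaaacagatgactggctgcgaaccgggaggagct
Cort (chr4:149126764-149126863, minus strand): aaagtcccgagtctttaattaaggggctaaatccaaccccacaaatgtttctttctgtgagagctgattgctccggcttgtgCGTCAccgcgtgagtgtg
Pdyn, first window (chr2:129699939-129700038, minus strand): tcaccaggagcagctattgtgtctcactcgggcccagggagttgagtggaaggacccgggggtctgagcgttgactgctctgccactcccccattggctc
Tac1 (chr6:7554961-7555060, plus strand): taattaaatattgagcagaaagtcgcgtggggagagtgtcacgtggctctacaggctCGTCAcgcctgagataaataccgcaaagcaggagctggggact

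Over the whole window of 300 bases, 250 before and 50 after the start, the half-site was found for 5 of the 7 genes: Sst, Vip, Cck, Cort and Tac1. The full CRE was found for Sst alone among them, with its first base at position -48 from the start. The half-sites of Vip, Cck and Cort began at -79, -47 and -18, and those of Tac1 at -197 and -43. Npy and both Pdyn windows held neither motif. Of all 32851 RefSeq windows of this length, 20.8% held the half-site and 1.79% the full site. A match describes the letters of a window and is not evidence that a factor binds there.

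The arrays stood at a common level, with a 2% trimmed mean of 500.3 on each and a median signal of 203 to 220. Log2 signals of array pairs correlated across tested probe sets at 0.948 to 0.958 within groups and 0.945 to 0.961 between groups. Non-deprived replicate 3 differed from the rest in the 18S ribosomal RNA control, whose 3′ probe set gave 2689 there and 661 to 981 on the other 5 arrays. Fos, an immediate-early gene taken here as the marker of neuronal activity, averaged 703 ± 87.7 signal units in deprived and 2946 ± 236 in non-deprived arrays (SD, n = 3 each; log2 change -2.05, SE 0.12, adjusted p = 0.00014).

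None of the neuropeptide genes passed the test between hemispheres, but Sst and Npy read lower on every deprived array than on any non-deprived one. Values are MAS5 signals, an arbitrary brightness unit, compared as log2(signal + 16), and log2 changes are given as deprived minus non-deprived. The test was limma with Benjamini-Hochberg adjustment over the 7453 probe sets whose mean signal was among the highest 60% (at least 134.7), and the threshold was an adjusted p under 0.05. Of the 8 genes, 7 passed that filter by their brightest probe set, and Tac1 did not. By limma 0 of the 7 passed the threshold (smallest adjusted p = 0.26, for Sst), where 0.174% of all tested probe sets did. At an unadjusted p under 0.05 there were 3 lower (Sst, Npy and Cck) and 1 higher (Cort), where 2.42% of all tested probe sets were lower and 2.67% higher at that level. The groups did not overlap for 2 genes, Sst and Npy, both lower. Over all tested probe sets 4.59% had every deprived array below every non-deprived array, and 5.5% had the opposite. The neuropeptide genes were chosen with earlier results of these data known, so their counts beside these shares are a description only.

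In all, 4 of the 7 tested genes had a lower mean in deprived arrays (Sst, Npy, Cck and Penk) and 3 a higher one (Vip, Cort and Pdyn). The median log2 change over the 7 was -0.11, against 0.01 over all tested probe sets, of which 47.8% were lower. That median does not hold its sign: it was 0.021 without deprived replicate 2 and 0.19 when the tested probe sets of each gene were averaged.

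**Figure D1:**
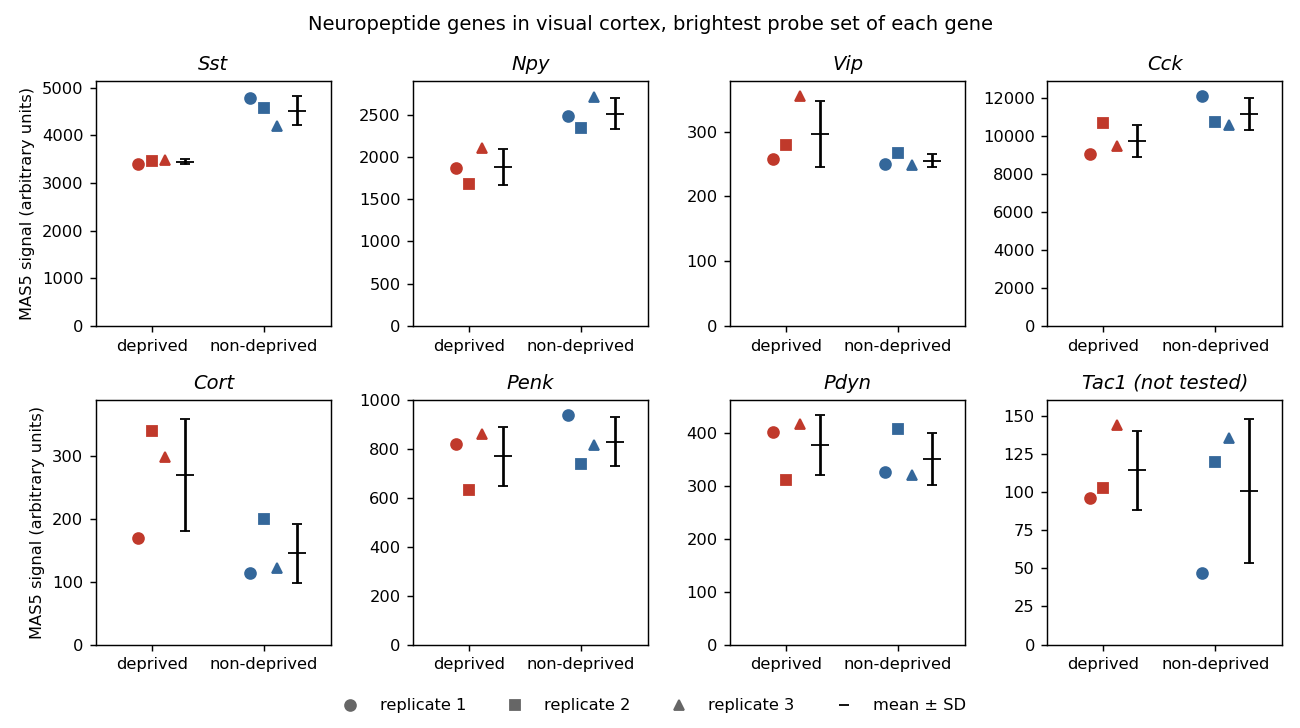
MAS5 signal (arbitrary units, axis from 0) of the brightest probe set of each of the 8 neuropeptide genes on the 3 deprived (red) and 3 non-deprived (blue) arrays, with the mean ± SD of each group beside the points. The groups are separate for Sst and Npy and overlap for the other 6 genes.

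Sst, which encodes somatostatin, read 3391, 3457 and 3491 in deprived arrays, against 4792, 4578 and 4193 in non-deprived arrays. All deprived arrays were low and close together, and the non-deprived arrays were higher and more spread. The means were 3446 ± 50.9 in deprived and 4521 ± 304 in non-deprived cortex (SD, n = 3 each), a signal 1.31-fold lower. The log2 change was -0.39 (SE 0.08, 95% interval -0.57 to -0.20, adjusted p = 0.26), the 27th smallest p of the 7453. Relative to the non-deprived mean, the deprived arrays lay at log2 values of -0.41, -0.38 and -0.37. With each array left out in turn the change stayed between -0.44 and -0.34, and leaving out non-deprived replicate 3, which had the high 18S control, gave -0.44.

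Npy, which encodes neuropeptide Y, a peptide that acts on presynaptic terminals to reduce transmitter release, read 1862, 1681 and 2103 in deprived arrays, against 2477, 2342 and 2706 in non-deprived arrays. The highest deprived value lay below the lowest non-deprived one. The means were 1882 ± 212 in deprived and 2509 ± 184 in non-deprived cortex (SD, n = 3 each), a signal 1.33-fold lower, with a log2 change of -0.42 (SE 0.11, 95% interval -0.66 to -0.17, adjusted p = 0.59). Without non-deprived replicate 3 the change was -0.36, and over all arrays left out in turn it ranged from -0.50 to -0.34. In tissue of mixed cells, fewer cells that make a peptide and less RNA in each of them cannot be told apart, for Sst, Npy or any gene below.

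Cck, the precursor of cholecystokinin, read 9048, 10666 and 9480 in deprived arrays, against 12111, 10722 and 10595 in non-deprived arrays. Deprived replicate 2 lay within the non-deprived range, so the groups overlapped. The means were 9731 ± 838 in deprived and 11142 ± 841 in non-deprived cortex (SD, n = 3 each), and the log2 change was -0.20 (SE 0.09, 95% interval -0.39 to -0.0026, adjusted p = 0.95).

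**Figure D2:**
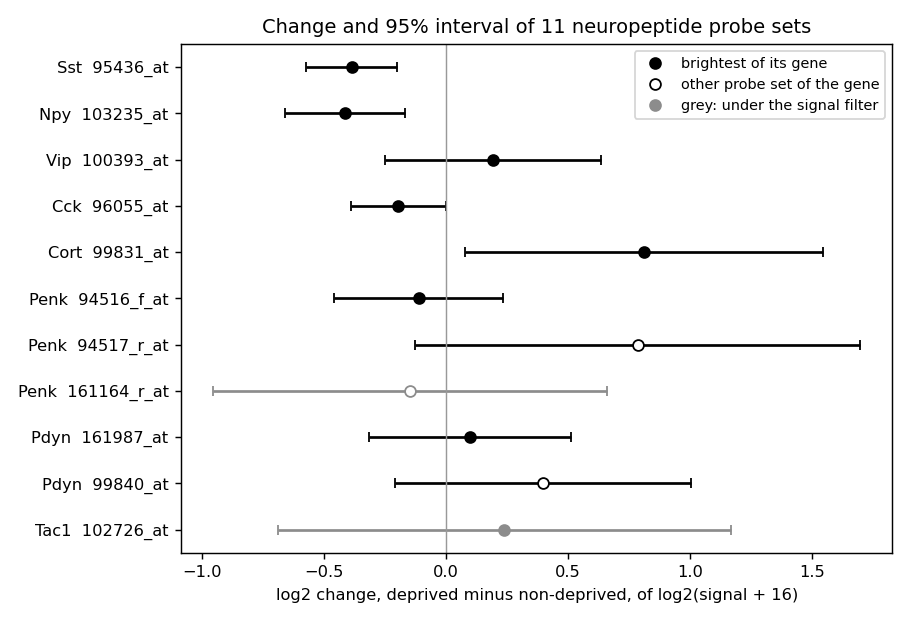
Log2 change, deprived minus non-deprived, of log2(signal + 16) with its 95% interval for each of the 11 neuropeptide probe sets; filled points are the brightest probe set of a gene and grey ones were under the signal filter. The intervals of Sst, Npy and Cck lie below 0, that of Cort above 0, and the others cross 0.

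Cort, the relative of Sst, had the largest log2 change among the 7 tested genes, and in the opposite direction. It read 170, 340.1 and 298 in deprived arrays, against 113.6, 199 and 122 in non-deprived arrays. The groups overlapped, because deprived replicate 1 lay below non-deprived replicate 2. The means were 269 ± 88.6 in deprived and 145 ± 47.3 in non-deprived cortex (SD, n = 3 each), with a log2 change of 0.81 (SE 0.33, 95% interval 0.08 to 1.54, adjusted p = 0.95). It ranged from 0.63 to 1.09 with each array left out. The non-deprived mean is close to the signal filter, no detection call was used here, and a level above background is not shown.

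Vip, which encodes vasoactive intestinal peptide, read 257, 279 and 355 in deprived arrays, against 251, 268 and 248 in non-deprived arrays. Deprived replicate 3 was high, and deprived replicate 1 lay inside the non-deprived range. The log2 change was 0.19 (SE 0.20, 95% interval -0.25 to 0.64, adjusted p = 0.97), and 0.065 without deprived replicate 3.

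Among the genes with a CRE half-site in the windows above, Sst had a log2 change of -0.39 (SE 0.08), Cck -0.20 (SE 0.09) and Vip 0.19 (SE 0.20). Cort had 0.81 (SE 0.33) and the untested Tac1 0.24 (SE 0.41). Of the genes whose windows held none, Npy had -0.42 (SE 0.11) and Pdyn 0.10 (SE 0.18). Penk had no window to compare. None of the tested genes passed the threshold, and a link between motif and change was not tested.

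Neither opioid precursor passed the test, and the arrays of the 2 groups overlapped on each of their probe sets. Penk, the enkephalin precursor, read 820, 631.5 and 860 in deprived arrays, against 940, 738.5 and 815 in non-deprived arrays, on a probe set marked _f, a class designed with fewer constraints that can share probes with related transcripts. Both groups covered much the same range, and the log2 change was -0.11 (SE 0.16, 95% interval -0.46 to 0.23, adjusted p = 0.97). The second Penk probe set, marked _r, read 300.0, 489 and 235 in deprived arrays, against 250, 86.6 and 270 in non-deprived arrays. There the groups overlapped as well, with a log2 change of 0.79 (SE 0.41, adjusted p = 0.97), opposite in sign to the brightest. The third Penk probe set, also _r, averaged 23.2 in deprived and 25.8 in non-deprived arrays and was under the filter, with a log2 change of -0.15 (SE 0.36).

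Pdyn, the dynorphin precursor, read 403, 312 and 418 in deprived arrays, against 326, 407 and 320.1 in non-deprived arrays. The groups overlapped, and the log2 change was 0.10 (SE 0.18, 95% interval -0.32 to 0.51, adjusted p = 0.98). With each array left out the change ranged from 0.021 (without deprived replicate 3) to 0.22 (without deprived replicate 2). Its dimmer probe set read 234, 161 and 207 in deprived arrays, against 150, 129.5 and 162 in non-deprived arrays, with a log2 change of 0.40 (SE 0.27, adjusted p = 0.97). Here too 1 deprived value lay within the non-deprived range.

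Tac1, the tachykinin precursor, was under the signal filter. It read 96.3, 102.6 and 144 in deprived arrays, against 47.1, 119.6 and 136 in non-deprived arrays. Non-deprived replicate 1 was low and the groups overlapped. In a fit without the filter its log2 change was 0.24 (SE 0.41, 95% interval -0.69 to 1.17), an interval wide enough to hold sizeable changes in either direction.

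**Figure D3:**
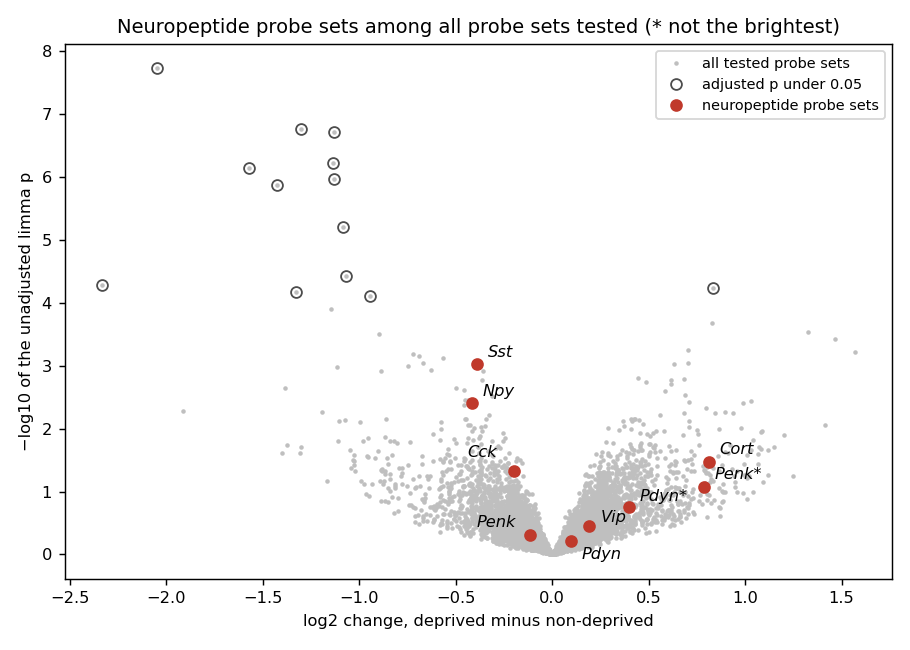
Log2 change (x axis) against −log10 of the unadjusted limma p (y axis) for the 7453 tested probe sets (grey), those with adjusted p under 0.05 (open circles) and the 9 tested neuropeptide probe sets (red, an asterisk where it is not the brightest of its gene). Sst and Npy lie above the bulk of probe sets on the lower side, below the 13 that passed.

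On the log2 scale Sst had the narrowest range among the deprived arrays, and the arrays did not rank the peptides alike. Deprived replicate 2 held the lowest deprived value of Npy, Penk and Pdyn and the highest of Cck and Cort. Deprived replicate 3 held the highest deprived value of Sst, Npy, Vip, Penk, Pdyn and Tac1. As a description over the 6 arrays, which all genes share, log2 Sst and Npy had a Pearson r of 0.80 with both groups pooled, and -0.33 once each group's mean was taken off. For Vip and Cort r was 0.73 pooled and 0.56 within groups, and for Npy and Penk it was 0.60 and 0.71. Within groups r ranged from -0.69 to 0.71 over the 28 pairs of the 8 genes.

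Leaving out 1 array at a time kept the direction of every tested neuropeptide gene except Penk. For Penk the change ranged from -0.20 to 0.021, and it was 0.021 without deprived replicate 2. None passed the threshold in any of the 6 such fits.

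**Figure D4:**
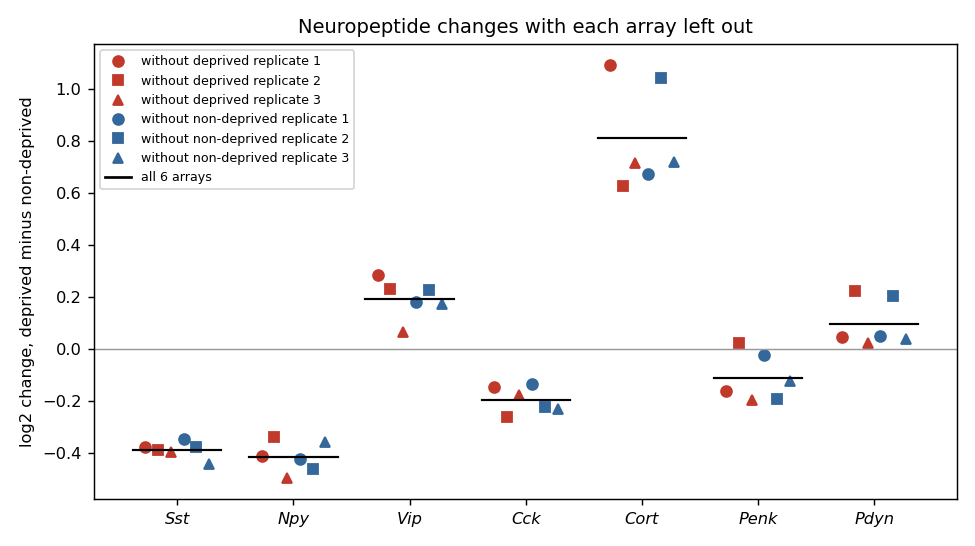
Log2 change, deprived minus non-deprived, of the 7 tested neuropeptide genes with each array left out (red, a deprived array removed; blue, a non-deprived array removed; shape, the replicate number) and with all 6 arrays (black line). Sst stays between -0.44 and -0.34 and Npy between -0.50 and -0.34, while Penk crosses 0.

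The genes whose signals followed Sst most closely over the 6 arrays were Dusp6, a phosphatase that switches off ERK (Pearson r = 0.997), and Ier2, an immediate-early gene (r = 0.981). They were the top 2 of the named genes outside the neuropeptides, and their own log2 changes were -1.09 and -1.07. Npy was most like Tubb3, a neuronal tubulin (r = 0.985), and Rela, a subunit of NF-kappaB (r = 0.981). Cck was most like Wars and App (r = 0.973 and 0.972), and Cort most like Sesn1 and Pdia6 (r = 0.976 and 0.967). Vip was most like Sdhc and Gstm5 (r = 0.979 and 0.976), Penk like Sra1 and Ubap2l (r = 0.996 and 0.995), and Pdyn like Gcdh and Rdh13 (r = 0.985 and 0.975). These r values were taken with both groups pooled, so a difference between the groups enters them. With 6 arrays and 7453 probe sets searched, values this high are given as a description only.

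Receptors of these peptides had dim signals for the most part: 18 of the 19 listed were on the array, 7 passed the signal filter, and 0 passed the threshold by limma (1 lower and 1 higher at an unadjusted p under 0.05). The somatostatin receptors Sstr2, Sstr4 and Sstr5, which cortistatin also binds, had log2 changes of 0.08 (SE 0.24), -0.06 (SE 0.16) and -0.28 (SE 0.27). The other tested probe sets of Sstr2 gave -0.04 (SE 0.20) and 0.17 (SE 0.23). The neuropeptide Y receptor Npy2r, a presynaptic receptor, read 426, 424 and 399.6 in deprived arrays, against 293, 355.5 and 303 in non-deprived arrays. All 3 deprived values were above the non-deprived ones on this _f probe set, with a log2 change of 0.38 (SE 0.16, adjusted p = 0.95), and its second, dimmer probe set, under the filter, gave 0.27 (SE 0.38). Npy1r had 0.06 (SE 0.26), with -0.41 (SE 0.53) on a probe set under the filter, and Cckbr, the main cholecystokinin receptor of the brain, 0.08 (SE 0.13). Tacr2, a receptor for neurokinin A, read 96.1, 224 and 283 in deprived arrays, against 381, 337 and 361 in non-deprived arrays. Its groups were separate, with a log2 change of -0.90 (SE 0.33, adjusted p = 0.95). No receptor of vasoactive intestinal peptide or of the opioids was bright enough to be tested.

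**Figure D5:**
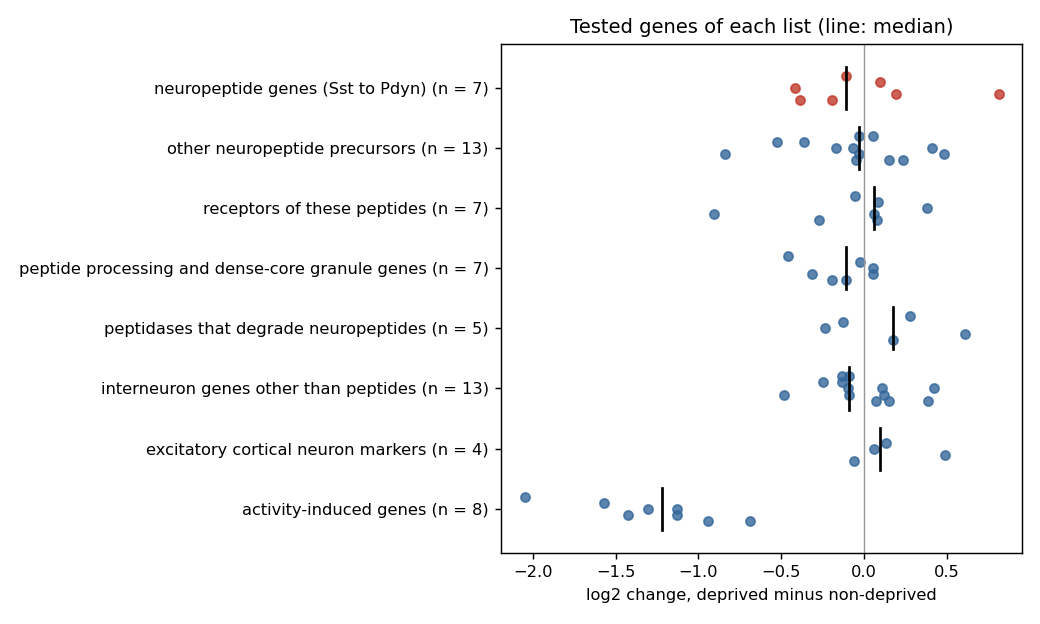
Log2 change, deprived minus non-deprived, of each tested gene of 8 lists, by its brightest probe set, with the median as a black line. The 8 activity-induced genes lie between -2.05 and -0.69, and the 7 neuropeptide genes between -0.42 and 0.81.

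Other neuropeptide precursors gave no gene past the threshold by limma (0 of 13 tested, of 31 listed, and 0 at an unadjusted p under 0.05). Their median log2 change was -0.03, with 8 lower and 5 higher. Hcrt, the orexin precursor of the hypothalamus, had -0.84 (SE 0.38, adjusted p = 0.95) at a mean of 109.7 in deprived and 203 in non-deprived arrays, and Tac2, the neurokinin B precursor, had 0.48 (SE 0.26, adjusted p = 0.97).

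Granins and processing enzymes, the proteins that package and cut peptide precursors, had 7 tested genes, a median of -0.11 and 0 past the threshold by limma, with 2 lower at an unadjusted p under 0.05. Chgb and Scg2, granule proteins, averaged 8544 ± 738 and 683 ± 52.3 in deprived arrays, against 10591 ± 343 and 944 ± 62.6 in non-deprived arrays (SD, n = 3 each). The groups were separate for both, with log2 changes of -0.31 (SE 0.08, adjusted p = 0.51) for Chgb, on an _f probe set, and -0.46 (SE 0.12, adjusted p = 0.61) for Scg2. The second Chgb probe set, marked _r and under the filter, gave 0.17 (SE 0.36), and its groups overlapped. Peptidases that degrade neuropeptides had a median of 0.17 over 5 tested genes and 0 past the threshold by limma, also 0 at an unadjusted p under 0.05. Anpep had 0.60 (SE 0.43) and Thop1 0.27 (SE 0.23).

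The list of interneuron genes that are not peptides holds genes of GABAergic cells in general and genes of particular interneuron classes, those that make Sst included. Of 13 tested genes 7 were lower and 6 higher, with a median log2 change of -0.09 and 0 past the threshold by limma (1 lower at an unadjusted p under 0.05, Pvalb). The summed signal of the 16 listed genes on the array was 14552 to 16719 in deprived and 16200 to 17034 in non-deprived arrays. Gad1, the main enzyme of GABA synthesis, read 3170, 2906 and 3202 in deprived arrays, against 3188, 3624 and 3373 in non-deprived arrays. Its groups overlapped, with a log2 change of -0.13 (SE 0.09, adjusted p = 0.97), and Gad2 had -0.14 (SE 0.31). Lhx6, a transcription factor of the interneurons that make Sst or Pvalb, had -0.48 (SE 0.22, adjusted p = 0.95), with 341 ± 94.1 in deprived and 478 ± 88.7 in non-deprived arrays (SD, n = 3 each). Pvalb, which marks fast-spiking interneurons, had -0.25 (SE 0.11, adjusted p = 0.95) on an _i probe set and -0.014 (SE 0.28) on its second tested probe set, marked _f. Among the 6 higher genes, Htr3a had 0.38 (SE 0.25), with every deprived array above every non-deprived one, and Dlx1 had 0.42 (SE 0.40). Dlx5 and Dlx2, both under the filter, had 1.02 (SE 0.37) and 0.57 (SE 0.31), also with all deprived arrays higher. Such a separation held for 5.5% of all tested probe sets. Nos1, also under the filter, had -0.20 (SE 0.55). Reln had -0.09 (SE 0.14), and -1.31 (SE 0.49, adjusted p = 0.95) on its second tested probe set, marked _r, where the groups overlapped. The part of interneuron content in the Sst and Npy values was not tested.

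Penk, Pdyn and Tac1 are also strong genes of the striatum, which lies below the cortex. Of 9 other striatal markers 3 were on the array, with a summed signal of 1979 to 2448 in deprived and 1929 to 2375 in non-deprived arrays, and Drd2, the dopamine receptor of striatal neurons, read 203.5 ± 55.7 in deprived and 206 ± 26.5 in non-deprived arrays (SD, n = 3 each; log2 change -0.05, SE 0.27). Pde1b made up most of that sum, with means of 2021 in deprived and 1891 in non-deprived arrays, and had 0.10 (SE 0.13). The part of striatal tissue in the values of Penk, Pdyn or Tac1 was not tested. Among the lists of tissue and cell type markers, that of hippocampus had a summed signal that did not overlap between groups, 1700 to 2140 in deprived and 1434 to 1651 in non-deprived arrays over 5 genes. Of these Wfs1, which also has cortical expression, made up most of the sum, and its own groups overlapped. It averaged 1408 ± 256 in deprived and 1061 ± 208 in non-deprived arrays (SD, n = 3 each). Its log2 change was 0.41 (SE 0.17, adjusted p = 0.95). Zbtb20 had 0.62 (SE 0.49) and Neurod1 -0.0068 (SE 0.35). Under the filter, Lct had 0.03 (SE 0.33) and Prox1 -0.45 (SE 0.39). The part of hippocampal tissue in the values of Vip, Cort, Cck or the other peptides was not tested. The listed excitatory neuron markers (4 tested, median 0.09; Neurod6 0.49, SE 0.29; Tbr1 0.13, SE 0.17) mark the cortical tissue the labels name, and Tbr1 averaged 3563 ± 715 in deprived and 3258 ± 671 in non-deprived arrays (SD, n = 3 each).

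Markers of the remaining cell types and of thalamus gave 0 genes past the threshold by limma, with 1 of them, the astrocyte gene Aldoc, at an unadjusted p under 0.05. The medians were -0.16 for thalamus (5 tested; Lef1 -0.43, SE 0.21; Tcf7l2 -0.18, SE 0.16), 0.06 for astrocytes (7 tested; Aldoc -0.25, SE 0.10; Slc1a2 0.29, SE 0.31) and 0.13 for oligodendrocytes (5 tested; Sox10 0.24, SE 0.11; Cldn11 0.21, SE 0.16). Microglia had 0.06 (5 tested; Ctss 0.16, SE 0.10; Cx3cr1 -0.29, SE 0.20) and endothelium -0.16 (3 tested; Cldn5 0.40, SE 0.19; Flt1 -0.16, SE 0.21). By contrast 8 of 8 activity-induced genes, a list chosen because these data had shown their fall, were lower, 7 of them past the threshold, with a median of -1.22.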

How the data were processed

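RNA of 3 deprived and 3 non-deprived visual cortex samples was hybridised to 1-colour arrays. The authors deposited MAS5 signal intensity per probe set on a linear scale, per the submitters' processing notes; version and scaling target are not given in the sources used here. No scanner file or detection call was used. Arrays were brought to a common 2% trimmed mean, which left them nearly as deposited, the 66 control probe sets were set aside, and the top 60% of mean signal was tested on log2(signal + 16) with limma 3.58.1 in R 4.3.3 (lmFit, eBayes with intensity trend, two-sided, group as the only term), tested on simulated data. The number of arrays limits the precision. Values of probe sets under the filter come from a fit without it.

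Names came from the platform annotation, updated by Entrez ID to RefSeq (GRCm38.p6): 10855 probe sets had 1 symbol, of which 10839 matched, 396 with several symbols stayed unnamed, as did 1237 without one here. Promoter sequences are RefSeq's. The members and gene lists were chosen with earlier results of these data known. Named genes are all member probe sets, tested receptors and the 2 genes of each other list with the smallest p. The rule also covers each listed gene past the threshold, but of the activity-induced list only Fos is named. By the same rule Gad1, Gad2, Pvalb, Drd2, Fos and the 2 genes most correlated with each tested member are named. Slc17a7 and Ppp1r1b, also in that rule, are not analysed here. Outside that rule, Htr3a, Dlx1, Dlx2, Dlx5, Nos1, Reln, Neurod1, Lct and Prox1 were added, with their values known, to show other genes of their lists. Alternatives were other scalings, pseudocounts, filters, a replicate block, eBayes without trend, other probe set rules and leaving out each array.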

Additional observations from a re-analysis of the deposited data

How the results depend on the processing

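Of 117 recomputed log2 changes of the 7 tested neuropeptide genes, 115 kept their direction and their side of the threshold, and 2, both of Penk, turned: 0.34 with the mean of its tested probe sets and 0.021 without deprived replicate 2, with a range of -0.20 to 0.021 over single arrays left out. The median over the 7 genes turned under the same settings, to 0.19 and 0.021, and ranged from -0.19 to 0.021 with single arrays left out. That the second Penk probe set runs opposite to the first shows in their values; otherwise the cause was not tested. No neuropeptide gene passed under any of the 18 alternatives, a threshold of 0.10 included; the adjusted p of Sst ranged from 0.19 to 0.85 and that of Npy from 0.44 to 1.00. Vip and Cort were under the stricter filter of the top 40% and have no value there. Probe sets past the threshold over the whole array numbered 13, and 7 to 10 with single arrays left out (7 without non-deprived replicate 2, and 8 without replicate 3 of either group). With the replicate number as a block 10 passed, all among the 13, and Sst had an adjusted p of 0.44. Same-numbered arrays deviated together at correlations of 0.003, 0.049 and -0.020, and 0 of 3 deprived arrays correlated best with their own number. The signals thus show no pairing by number, but they cannot tell which arrays came from the same mice. Signals of Tac1, Cort and most receptors are close to or under the filter, and were not shown to be above background, since no detection call was used.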
